A study of Gallus gallus with 24 samples.

Results

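Solute carriers are membrane proteins that move small molecules such as sugars, lactate, amino acids, vitamins, metals and ions across the surface of a cell or the membranes inside it. The genes described here are the solute carriers outside the SLC25 family, measured by RNA sequencing in 2 skeletal muscles of hens fed a control or a high-fat diet. They were chosen by name: a gene symbol that starts with SLC and a number, no SLC25 symbol, and at least 1 FPKM (fragments normalised to transcript length and to the mapped fragments of the library) in at least 4 of the 24 libraries. SLC8A3, SLC27A1 and SLC2A12 were set aside by the same rule. Of 233 genes with such a name, 128 met the minimum, out of 10944 genes tested and 20780 genes in the table. The minimum is also the filter used for the test across all genes, so all 128 were tested.

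The hens were Guangyuan Grey, all 210 days old and fasted when the muscles were taken. There were 6 groups of 4 libraries: LHFD_SOL, SHFD_SOL, CONT_SOL, LHFD_PEM, SHFD_PEM and CONT_PEM. SOL is the soleus, sampled at its widest region, and PEM the pectoralis major, sampled on its ventral side. LHFD hens ate high-fat feed for 60 days, SHFD hens for 15 days, and CONT hens ate the control feed. Both muscles came from the same birds, but the labels do not say which SOL and which PEM library share a bird. Neither feed composition nor sequencing depth is given in the sources used here, and the depth behind each value is unknown.

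The chicken pectoralis is made of fast fibres that work mainly by glycolysis, and a soleus mixes slow, oxidative fibres with fast ones. Carriers tie such fibres to the blood: glucose and lactate transporters serve energy supply, amino acid transporters supply protein synthesis, taurine, carnitine and choline carriers supply osmolytes and metabolic cofactors, and cation and anion exchangers set pH and cell volume. Many solute carriers act on organelles instead, among them the SLC35 carriers of nucleotide sugars in the Golgi and several zinc carriers. The roles given below are those of the mammalian genes of the same name unless another source is stated.

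The muscle labels were checked against fibre markers. The slow-fibre gene MYH7B ranged over 714 to 8699 FPKM in SOL libraries, against 0.0637 to 7.68 FPKM in PEM libraries, and the fast myosin MYH1E over 60.1 to 441 FPKM in SOL, against 8908 to 13618 FPKM in PEM. All 7 slow-fibre genes tested were called higher in SOL under each diet. Of 6 fast-fibre genes tested, 5, 5 and 3 were called lower in CONT, SHFD and LHFD hens, and 1 was called higher under each diet. Summed fast-fibre FPKM were 4384 to 25777 in SOL and 44944 to 60135 in PEM. Of the lists of cell markers, all 6 endothelial genes tested were called higher in SOL under each diet, as were 7, 6 and 7 of 7 smooth muscle and pericyte genes and 4, 5 and 4 of 5 adipocyte genes in CONT, SHFD and LHFD hens. Summed endothelial FPKM were 86.3 to 125 in SOL and 28.1 to 62.2 in PEM, summed smooth muscle FPKM 3076 to 5643 in SOL and 837 to 2466 in PEM, and summed adipocyte FPKM 83.5 to 179 in SOL and 21.7 to 93.9 in PEM. The smooth muscle list includes DES (desmin), which skeletal muscle fibres also make, so its sum is not specific to smooth muscle. Of 4 Schwann cell and nerve genes tested, 3, 2 and 2 were called higher in SOL in CONT, SHFD and LHFD hens, and none lower. Their summed FPKM overlapped, at 23.7 to 38.4 in SOL and 14.7 to 27.1 in PEM. No endothelial, smooth muscle or adipocyte gene of these lists in the table was at 0 throughout a group. In each of SHFD_PEM, LHFD_PEM, CONT_PEM and SHFD_SOL, 1 lymphocyte gene was at 0 throughout. Mitochondrial transcripts made up 20.6 to 27.0% of all FPKM in SOL and 10.4 to 17.3% in PEM, without overlap. These lists and the mitochondrial share therefore moved with every comparison of the muscles below, and their part in the results was not tested. Fewer cells of a type and less RNA per cell cannot be told apart in whole muscle. CONT_PEM 2 and LHFD_PEM 1 stood apart within their groups, with summed macrophage markers of 579 FPKM (110 to 140 in the other CONT_PEM libraries) and 361 FPKM. Other lists were high there too. CONT_PEM 2 was the highest of its group for adipocyte (93.9 FPKM), lymphocyte (44.4), fibroblast (188) and endothelial (62.2) sums. LHFD_PEM 1 was the highest of its group for lymphocyte (26.5 FPKM), fibroblast (266), adipocyte (49.6) and slow-fibre (177) sums. The slow-fibre sums of the other LHFD_PEM libraries were 27.5 to 46.4 FPKM. SHFD_SOL 4 stood apart in its fibre markers. Its fast-fibre sum was 4384 FPKM (18074.5 to 22109 in the other SHFD_SOL libraries). Its slow-fibre sum was 32613 FPKM (12829 to 15477 in the others).

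The 128 genes made up a small part of each library, 0.143 to 0.199% of all FPKM in SOL and 0.184 to 0.296% in PEM. The highest PEM share came from CONT_PEM 3. The other CONT_PEM libraries had 0.212 to 0.231%, and the SHFD_PEM and LHFD_PEM libraries 0.184 to 0.205%. Their median level over all libraries was 3.08 FPKM. Only 25 averaged 10 FPKM or more, and 43 averaged under 2 FPKM. The most abundant in SOL was SLC38A3, a glutamine and histidine transporter, followed by SLC38A2, a transporter of small neutral amino acids, with means of 98.9 and 78.5 FPKM over 12 libraries. In PEM the most abundant was SLC37A4, which moves glucose 6-phosphate into the endoplasmic reticulum, followed by SLC43A2, an efflux carrier of large neutral amino acids, with means of 165 and 80.1 FPKM. The nucleoside transporter SLC29A1 was also among the 5 most abundant in both muscles, with 51.8 FPKM in SOL and 37.9 FPKM in PEM.

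At the low end, 11 genes reached 1 FPKM in 4 to 6 libraries, among them SLC1A2, SLC22A4, SLC38A1 and SLC52A3 with exactly 4. Just outside were SLC1A4, SLC35B3, SLC35F3, SLC36A4 and SLC6A9, each with 3 libraries at the minimum. Of the 105 genes left out, 90 did not reach 1 FPKM in any library. SLC12A5, SLC16A7, SLC1A2, SLC22A3, SLC24A3, SLC4A7, SLC52A3, SLC6A4 and SLC9A7 reached 1 FPKM only in SOL libraries, and SLC11A1, SLC22A16 and SLC41A2 only in PEM libraries. These 12 genes entered the set through a single muscle, so a difference between the muscles is partly built into their selection. Other members reached 1 FPKM in both muscles but met the minimum of 4 libraries in 1 muscle only. By SOL and PEM libraries at 1 FPKM, these include SLC6A6 (12 and 2), SLC47A2 (12 and 1) and SLC43A3 (12 and 2). Further cases include SLC19A2 (11 and 1), SLC35E4 (12 and 3), SLC44A3 (2 and 12), SLC35A3 (1 and 10) and SLC16A6 (2 and 10). The same limit holds for all of them.

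**Figure D1:**
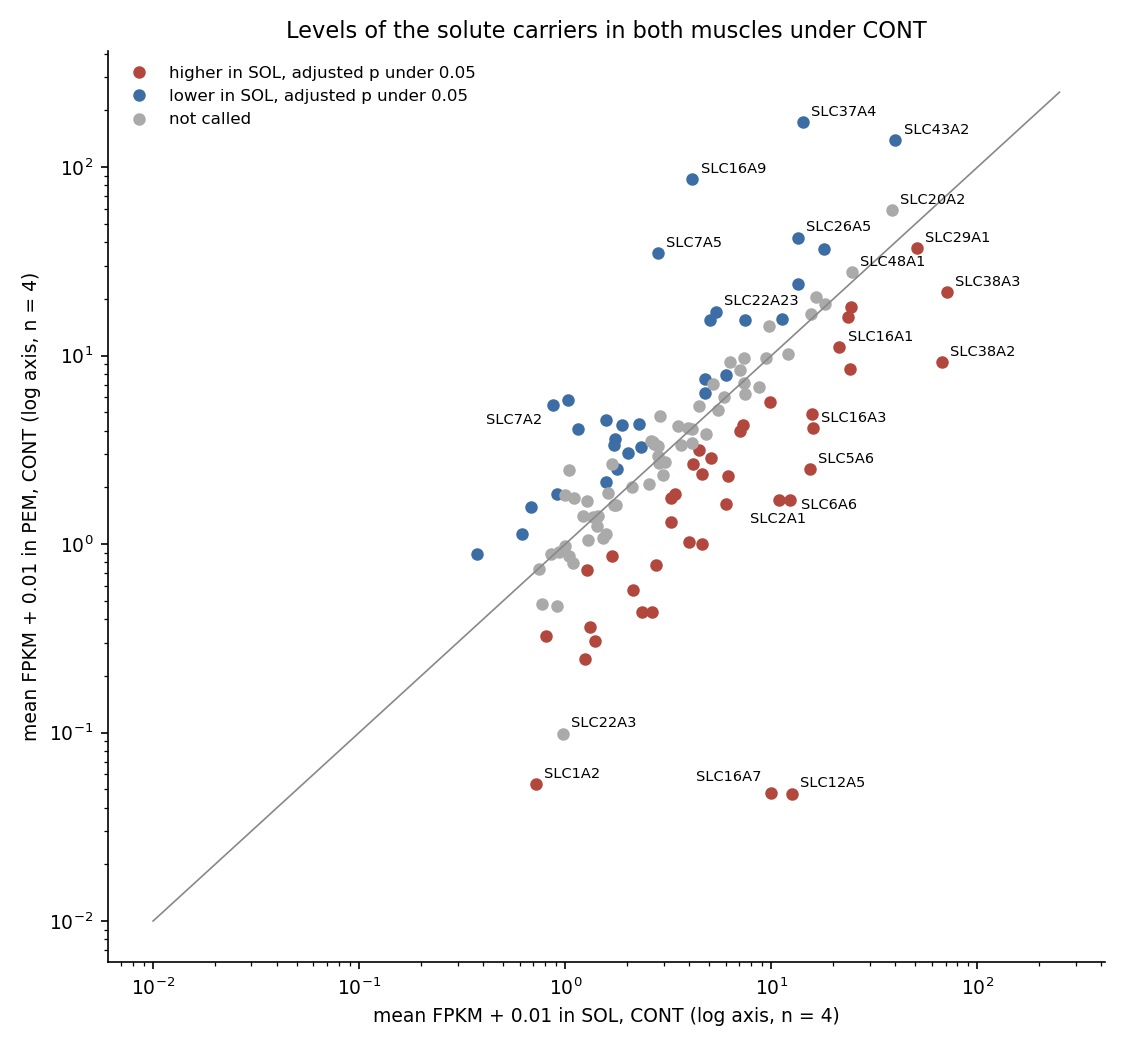
Mean FPKM of each of the 128 solute carriers in CONT hens, SOL on the horizontal and PEM on the vertical axis, both logarithmic after adding 0.01; points are coloured by the SOL against PEM call. SLC16A7 and SLC12A5 lie far below the diagonal, near 10 FPKM in SOL and under 0.1 FPKM in PEM, and SLC37A4 and SLC16A9 lie above it.

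The first question was which solute carriers differ between the muscles under each diet. Under the control diet 69 of the 128 were called, 39 higher and 30 lower in SOL than in PEM. A call is an adjusted p under 0.05 in limma's test on log2(FPKM + 1), with Benjamini-Hochberg adjustment over all genes tested. The share called was 53.9%, beside 50.7% of all genes tested (30.7% higher and 20% lower), so the set as a whole was near the background. In SHFD hens 70 were called, 39 higher and 31 lower in SOL, which is 54.7% beside a background of 51.6% (26.5% higher and 25.1% lower). In LHFD hens 57 were called, 35 higher and 22 lower, or 44.5% beside 43.8% (28.9% higher and 14.9% lower). The median log2 difference of the set was 0.05, 0.09 and 0.06 in CONT, SHFD and LHFD hens, and that of all genes 0.12, 0.04 and 0.14.

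Across the diets, 28 solute carriers were called higher in SOL in all 3, 19 were called lower in all 3, 37 were called under 1 or 2 diets and 44 under none. Of the 28, 7 reached 1 FPKM only in SOL libraries, and of the 19, 2 only in PEM libraries. Among the 116 members that reached 1 FPKM in both muscles, 21 were higher and 17 lower in all 3 diets, and the counts per diet were 31 higher and 27 lower in CONT, 30 and 29 in SHFD, and 27 and 20 in LHFD hens. Some of these 116 still met the minimum of 4 libraries through 1 muscle only, so their counts do not remove all of the built-in difference. No member was called in opposite directions under different diets. Counts of these patterns over all genes are not given here, so those of the members are not set against a background. The direction of the totals depended on scaling. Quantile normalization, which moved the median of all genes in CONT hens to -0.07, gave 31 higher and 42 lower, and scaling to an equal sum of nuclear-encoded FPKM, which removes the difference in mitochondrial share and moved it to 0.23, gave 44 higher and 22 lower. In SHFD hens the counts were 35 higher and 41 lower under quantile normalization and 41 and 29 under equal nuclear sums, and in LHFD hens 26 and 39, and 45 and 17. All genes moved with scaling too. Of all genes called in CONT, SHFD and LHFD hens, 60.6%, 51.4% and 66% were higher in the main fit. The shares were 43%, 43.5% and 43.3% under quantile normalization, and 71.9%, 57.5% and 74.8% under equal nuclear sums. Of the genes named by rule for CONT hens, those called kept their direction and call under both scalings, except SLC11A2, SLC39A14 and SLC6A4 under quantile normalization.

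**Figure D2:**
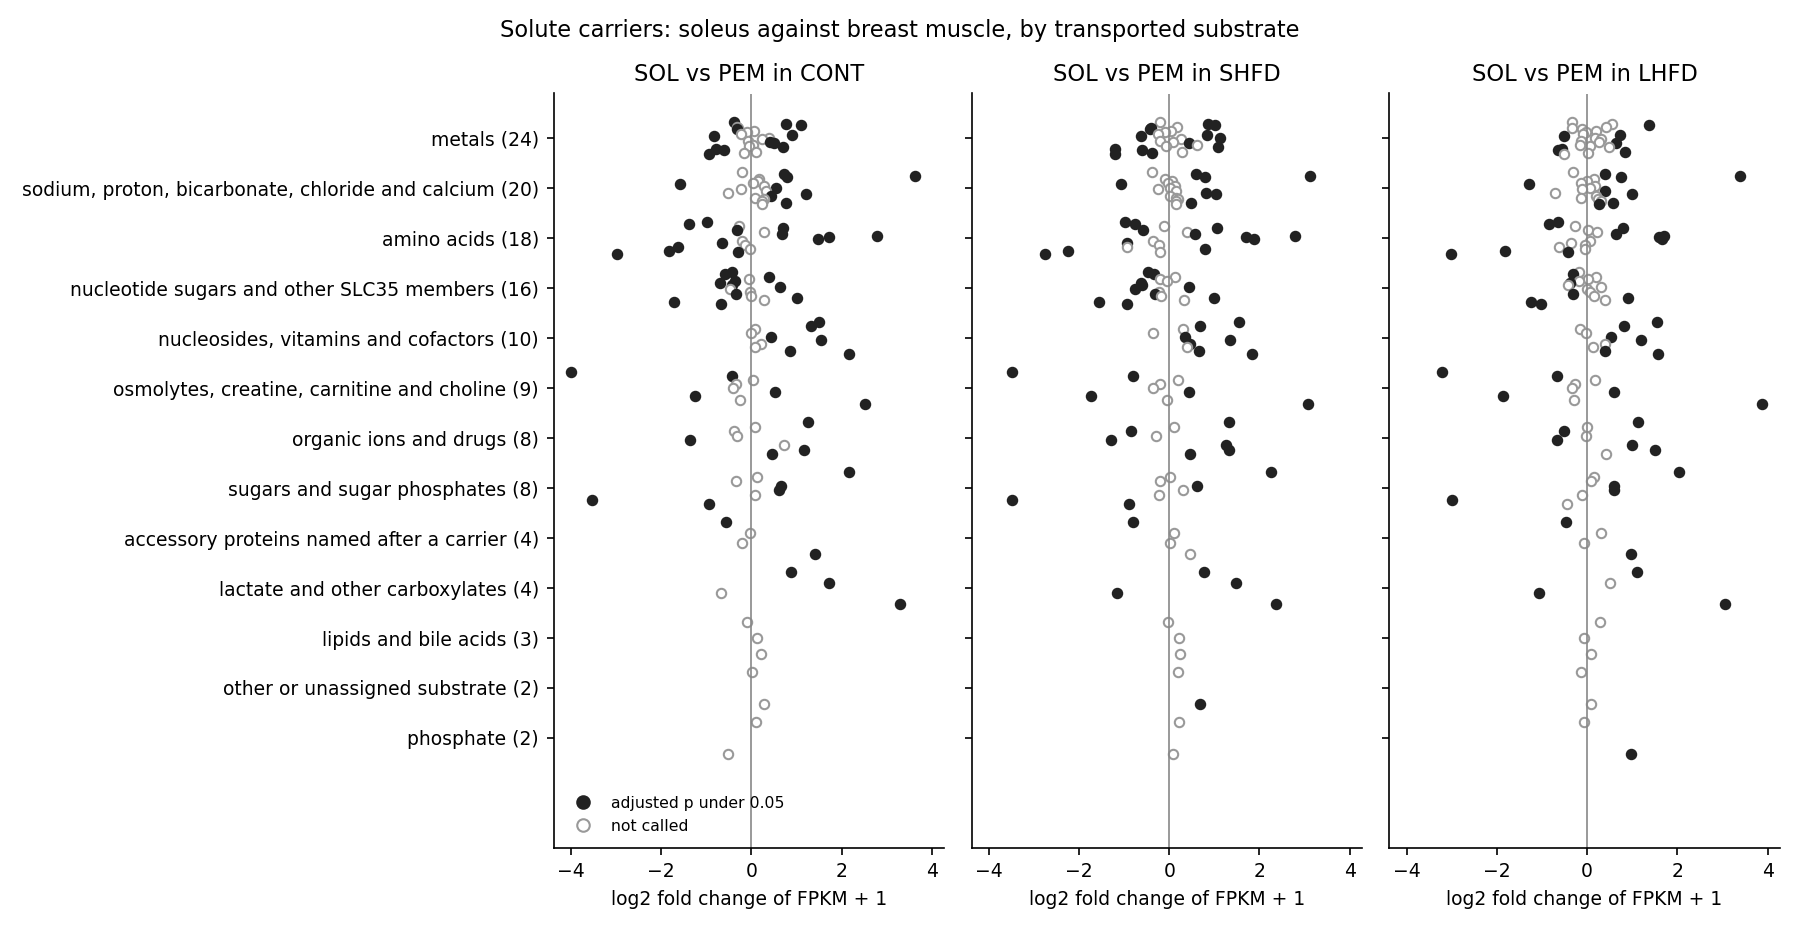
Log2 difference of SOL minus PEM on the log2(FPKM + 1) scale for each of the 128 solute carriers, in rows by substrate class and in panels by diet; filled points are called. Sugar, amino acid and osmolyte carriers spread to both sides, nucleoside and vitamin carriers lie mostly to the right, and SLC35 members mostly to the left.

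Among the 8 carriers of sugars and sugar phosphates, 3 were called higher and 2 lower in SOL in CONT hens, or 2 and 3 under quantile normalization. The share called in the main fit was 62.5%, beside 50.7% of all genes. SLC37A4 supplies glucose 6-phosphate to the phosphatase of the endoplasmic reticulum. It had 15.5, 15.6, 10.5 and 15.2 FPKM in CONT_SOL, against 176, 157, 158 and 200.4 FPKM in CONT_PEM. Every PEM library was above every SOL library, with a log2 difference of -3.52 ± 0.20 (SE, n = 4 each; limma adjusted p = 1.11e-11). The difference was -3.49 in SHFD hens and -3.00 in LHFD hens, both called.

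SLC2A1 (GLUT1), a glucose transporter with high affinity that most cell types carry, went the other way. It had 7.42, 9.83, 13.4 and 12.9 FPKM in CONT_SOL, against 1.14, 2.94, 1.62 and 1.08 FPKM in CONT_PEM, a log2 difference of 2.16 ± 0.33 (limma adjusted p = 1.55e-05) with no overlap. The highest value of all, 25.6 FPKM, came from SHFD_SOL 4, a library whose summed slow-fibre markers were also the highest. SLC2A8, an intracellular sugar transporter, was higher in SOL under each diet, with 3.41 ± 0.342 FPKM in CONT_SOL and 1.84 ± 0.629 FPKM in CONT_PEM (SD, n = 4 each). SLC37A1, a sugar phosphate exchanger related to SLC37A4, was called higher in CONT and LHFD hens, with ranges that overlapped. SLC45A4, placed with sugar carriers by its family, was lower in SOL in CONT and SHFD hens, with 1.56 ± 0.466 FPKM in CONT_SOL and 4.57 ± 3.70 FPKM in CONT_PEM. SLC2A14, SLC37A3 and SLC2A13 were called under no diet.

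The 4 carriers of lactate and related carboxylates included the best known lactate transporters of muscle. SLC16A1 (MCT1), usually described in oxidative fibres, averaged 21.3 ± 4.63 FPKM in CONT_SOL and 11.1 ± 2.45 FPKM in CONT_PEM (SD, n = 4 each), a log2 difference of 0.88 ± 0.19 (limma adjusted p = 0.000549). It was higher in SOL under all 3 diets, without overlap. SLC16A3 (MCT4), usually described as the lactate exporter of glycolytic fibres, was also higher in SOL in CONT hens. It had 20.3, 19.3, 14.6 and 9.06 FPKM in CONT_SOL, against 2.58, 4.95, 2.98 and 5.88 FPKM in CONT_PEM, and the log2 difference was 1.72 ± 0.33 (limma adjusted p = 0.000214). In SHFD hens it was 1.48, also called, and in LHFD hens 0.50, not called (limma adjusted p = 0.233).

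SLC16A7 (MCT2), a pyruvate and lactate transporter of high affinity, was near 0 in the PEM libraries and present in all SOL libraries. It had 6.79, 5.62, 10.7 and 16.6 FPKM in CONT_SOL, against 0.0173, 0.104, 0 and 0.0298 FPKM in CONT_PEM. Values stayed at or below 0.130 FPKM in all 12 PEM libraries, and the lowest SOL value was 3.77 FPKM. SLC16A7 thus entered the set through SOL alone, and a difference between the muscles is partly built into its selection. The log2 differences in CONT, SHFD and LHFD hens were 3.29, 2.37 and 3.06, all called. On the log2(FPKM + 1) scale these understate the contrast of a gene so low in PEM. The other member, SLC16A6, was called lower in SOL in SHFD and LHFD hens.

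Amino acid carriers, 18 in all, were split between the muscles. In CONT hens 5 were higher and 8 lower in SOL, in SHFD hens 6 and 6, and in LHFD hens 5 and 5. The share called was 72.2%, 66.7% and 55.6%, beside 50.7%, 51.6% and 43.8% of all genes. Without SLC1A2, which reached 1 FPKM only in SOL libraries, the counts were 4 and 8, 5 and 6, and 4 and 5. SLC38A3, SLC38A2, SLC38A10, SLC38A4 and SLC1A2 were higher in SOL under every diet, and SLC7A5, SLC16A10, SLC15A4 and SLC7A2 were lower under every diet. SLC38A6, SLC38A9, SLC1A1 and SLC38A1 were not called. Thus, of the 8 SLC38 members in the set, 4 were higher in SOL in all 3 diets, SLC38A7 was lower in CONT and SHFD hens, and 3 were uncalled.

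SLC38A2 (SNAT2) brings small neutral amino acids into the cell with sodium. It had 76.2, 83.6, 63.0 and 46.2 FPKM in CONT_SOL, against 4.53, 10.4, 9.68 and 12.3 FPKM in CONT_PEM. The lowest SOL library stood above the highest PEM library, and the log2 difference was 2.78 ± 0.25 (SE, n = 4 each; limma adjusted p = 1.57e-08). It was 2.78 in SHFD hens and 1.70 in LHFD hens. SLC38A3 (SNAT3) had 79.3, 60.8, 72.1 and 71.4 FPKM in CONT_SOL, against 32.7, 14.9, 22.5 and 17 FPKM in CONT_PEM, a log2 difference of 1.71 ± 0.24 (limma adjusted p = 4.89e-06).

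SLC7A5 (LAT1), the light chain of an exchanger that takes up leucine and other large neutral amino acids, was lower in SOL. It had 2.45, 3.02, 2.44 and 3.31 FPKM in CONT_SOL, against 21.3, 67.6, 12.8 and 37.9 FPKM in CONT_PEM. The PEM libraries spread widely but all lay above the SOL libraries, with a log2 difference of -2.99 ± 0.33 (limma adjusted p = 2.45e-07). SLC7A2, a carrier of arginine and lysine, averaged 0.857 ± 0.621 FPKM in CONT_SOL and 5.44 ± 1.34 FPKM in CONT_PEM (SD, n = 4 each) and was lower in SOL under each diet. SLC43A2 (LAT4) was lower in SOL in CONT hens, where it had 44.7, 36.2, 42.0 and 36.8 FPKM in CONT_SOL, against 125, 57.7, 229 and 144 FPKM in CONT_PEM. Its log2 difference of -1.62 ± 0.49 was called there (limma adjusted p = 0.00878) and not in SHFD or LHFD hens, whose differences were -0.94 and -0.62. SLC36A1, a proton-coupled amino acid carrier of lysosomes, was lower in SOL in CONT and SHFD hens, with log2 differences of -0.32 and -0.57.

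Of the 9 carriers of osmolytes, creatine, carnitine and choline, 2 were higher and 3 lower in SOL under each diet. The share called was 55.6% each time, beside 50.7%, 51.6% and 43.8% of all genes in CONT, SHFD and LHFD hens. Without SLC22A16, which reached 1 FPKM only in PEM libraries, 2 were higher and 2 lower under each diet. Those counts still hold SLC6A6 and SLC44A3, which met the minimum of 4 libraries through SOL alone and PEM alone. SLC16A9 has been linked to carnitine export in human studies. It had 4.0, 3.33, 7.41 and 1.73 FPKM in CONT_SOL, against 100.4, 35.8, 157 and 53.1 FPKM in CONT_PEM. The CONT_PEM libraries differed among themselves by several fold, yet the lowest was well above the highest SOL library. The log2 difference was -3.99 ± 0.43 in CONT hens (limma adjusted p = 1.65e-07), -3.49 in SHFD hens and -3.21 in LHFD hens. SLC22A5 (OCTN2), which takes carnitine into muscle, was not called under any diet, with 7.38 ± 0.399 FPKM in CONT_SOL and 9.66 ± 1.83 FPKM in CONT_PEM (SD, n = 4 each).

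SLC6A6, the sodium-coupled taurine transporter, was higher in SOL under each diet. It met the minimum of 4 libraries through SOL alone, with 12 SOL and 2 PEM libraries at 1 FPKM. A difference between the muscles is thus partly built into its selection. SLC6A6 had 13.2, 8.47, 12.4 and 15.4 FPKM in CONT_SOL, against 0.689, 4.80, 0.644 and 0.651 FPKM in CONT_PEM. The value of 4.80 FPKM came from CONT_PEM 2, the highest of its group on several lists of cell markers, and the other 3 lay close together. The log2 difference was 2.53 ± 0.30 in CONT hens (limma adjusted p = 6.26e-07) and 2.98 when CONT_PEM 2 and LHFD_PEM 1 were left out. In LHFD hens it was 3.88 ± 0.30, from 30.4, 23.5, 43.0 and 27.0 FPKM in LHFD_SOL, against 1.94, 0.984, 0.932 and 0.802 FPKM in LHFD_PEM. The choline-like carrier SLC44A3 was lower in SOL (-1.26 in CONT, -1.74 in SHFD and -1.87 in LHFD hens), and its relative SLC44A2, a choline transporter also found on mitochondria, was higher (0.53, 0.43 and 0.59).

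**Figure D3:**
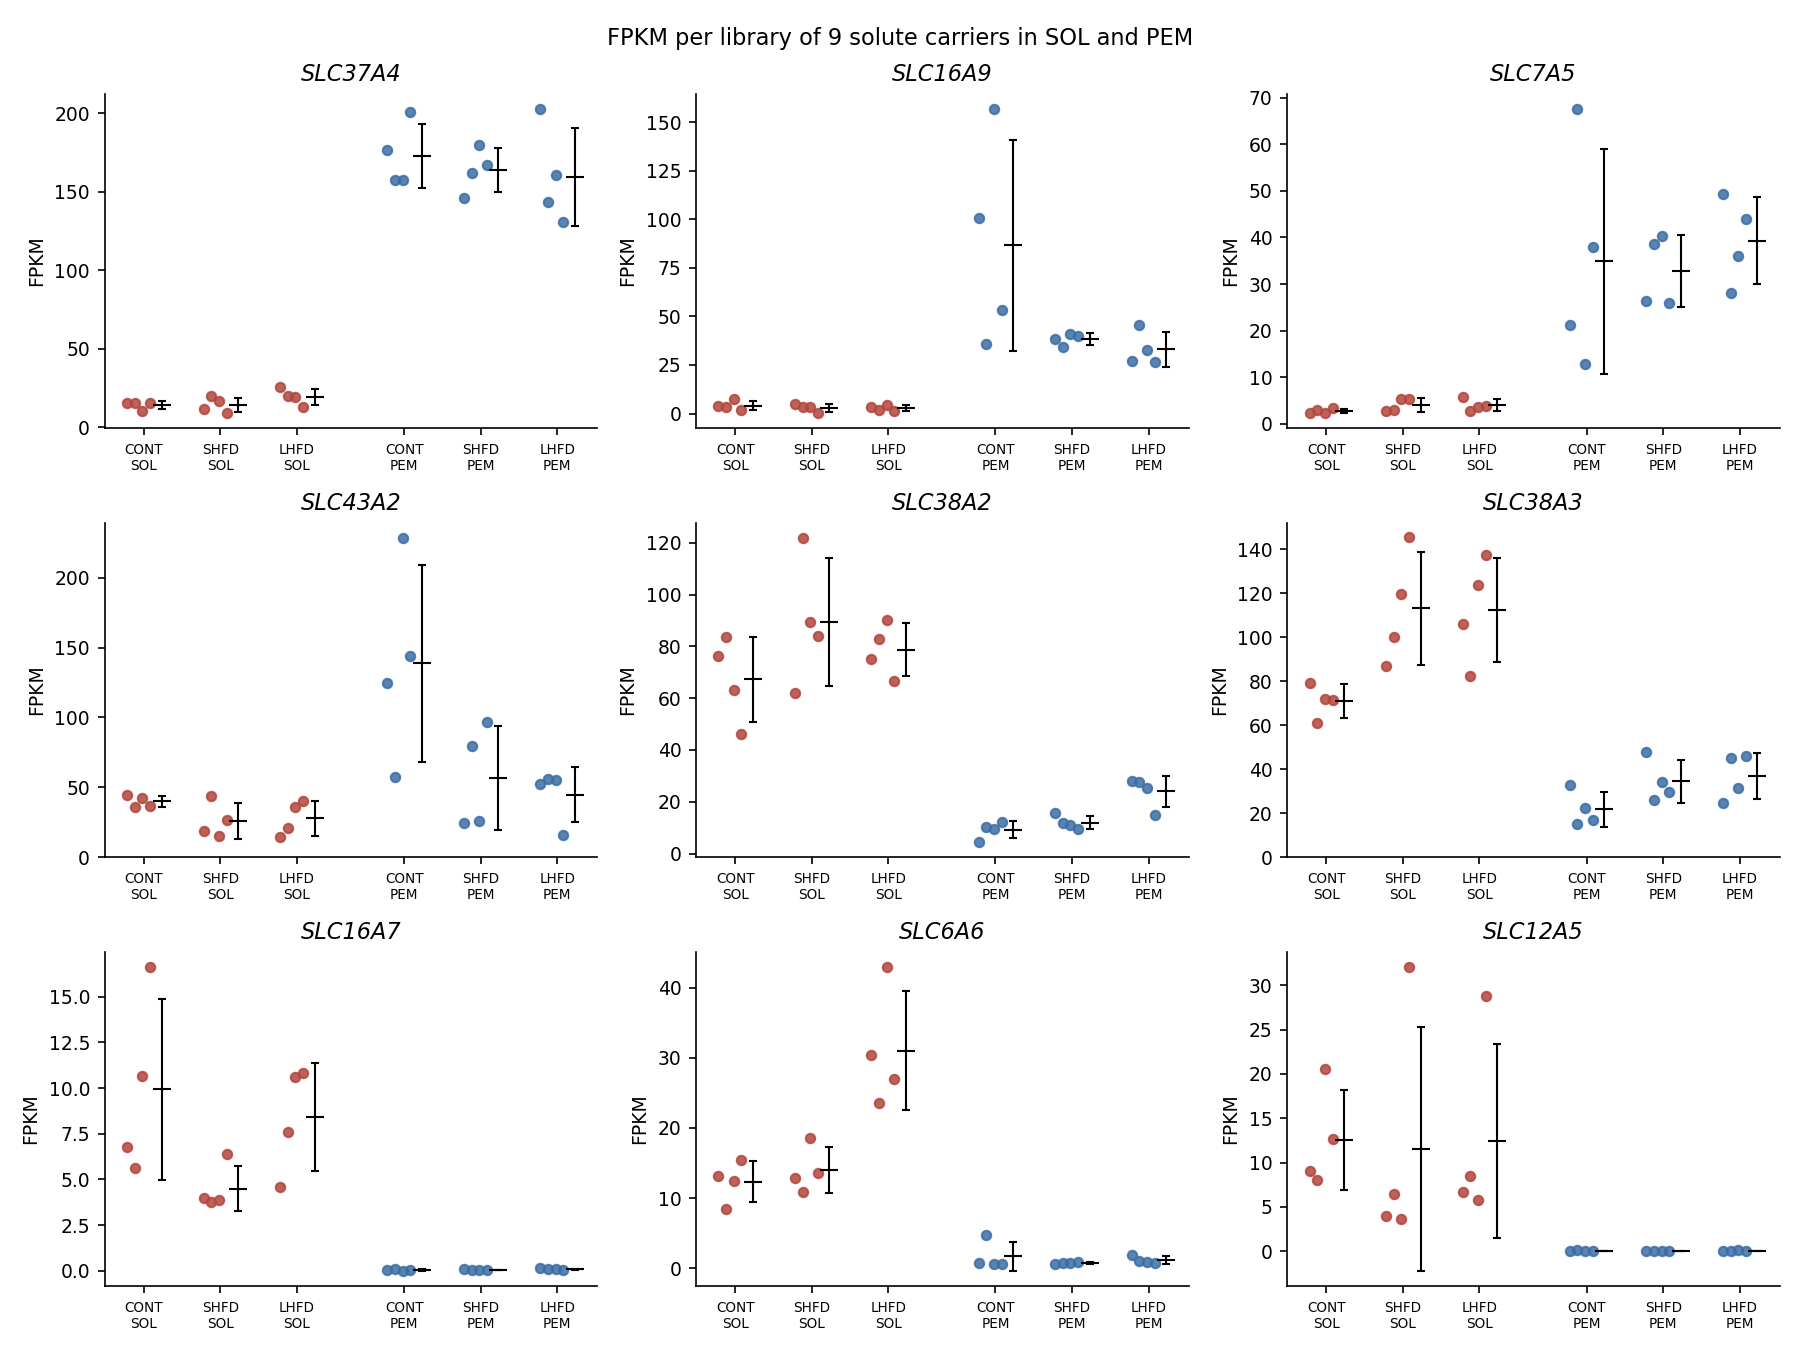
FPKM in every library for 9 solute carriers, with the SOL groups in red left of the PEM groups in blue; dashes and bars are the mean ± SD of 4 libraries. For SLC38A2, SLC38A3, SLC16A7, SLC6A6 and SLC12A5 every SOL library is above every PEM library, for SLC37A4, SLC16A9 and SLC7A5 every SOL library is below every PEM library, and for SLC43A2 the muscles overlap in SHFD and LHFD hens.

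Carriers of nucleosides, vitamins and cofactors were called in a single direction in the main fit. Of 10, 6 were called higher in SOL in CONT hens, 7 in SHFD and 6 in LHFD hens, and none was called lower. These are 60%, 70% and 60% of the class. Of all genes tested, 50.7%, 51.6% and 43.8% were called, with 30.7%, 26.5% and 28.9% higher. For the class, both other scalings gave 6 higher and 0 lower in CONT hens. Quantile normalization gave 5 higher and 1 lower in SHFD and in LHFD hens. Without SLC52A3, which reached 1 FPKM only in SOL libraries, 5, 6 and 5 were higher. Those counts still hold SLC19A2 and SLC43A3, which met the minimum of 4 libraries through SOL alone. A difference between the muscles is thus partly built into these counts too. SLC5A6 carries biotin and pantothenate. It had 13.8, 8.23, 19.7 and 19.6 FPKM in CONT_SOL, against 2.05, 2.69, 2.35 and 2.87 FPKM in CONT_PEM, a log2 difference of 2.16 ± 0.19 (limma adjusted p = 9.74e-09) with no overlap. The folate carrier SLC19A1 averaged 15.7 ± 1.88 FPKM in CONT_SOL and 4.91 ± 0.986 FPKM in CONT_PEM (SD, n = 4 each), and its log2 differences of 1.51, 1.54 and 1.55 in CONT, SHFD and LHFD hens were close to each other.

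SLC43A3, a purine base transporter, averaged 4.60 ± 1.45 FPKM in CONT_SOL and 0.994 ± 0.930 FPKM in CONT_PEM (SD, n = 4 each). The riboflavin carrier SLC52A3 averaged 1.23 ± 0.296 FPKM in CONT_SOL and 0.236 ± 0.104 FPKM in CONT_PEM. The adenosine transporter SLC29A1, abundant in both muscles, differed less, with 50.9 ± 6.33 FPKM in CONT_SOL and 37.1 ± 3.31 FPKM in CONT_PEM and a log2 difference of 0.44 ± 0.12 (limma adjusted p = 0.00451). SLC19A2, a thiamine carrier, was also higher under every diet. The folate carrier SLC46A1 was higher in SHFD hens only, and SLC23A2, SLC23A3 and SLC46A3 were not called.

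The 24 metal carriers gave 6 calls higher and 6 lower in CONT hens, 6 and 7 in SHFD, and 4 and 3 in LHFD hens. This split moved with scaling, to 3 higher and 9 lower under quantile normalization and 7 and 4 under equal nuclear sums in CONT hens. Without SLC11A1 and SLC41A2, which reached 1 FPKM only in PEM libraries, it was 6 and 4, 6 and 6, and 4 and 2. Of the 24 in the main fit, 50%, 54.2% and 29.2% were called in CONT, SHFD and LHFD hens, beside 50.7%, 51.6% and 43.8% of all genes. SLC49A4, counted here by its family name alone, was lower in CONT and SHFD hens. SLC30A1, which exports zinc across the cell surface, averaged 6.16 ± 1.44 FPKM in CONT_SOL and 2.29 ± 0.531 FPKM in CONT_PEM (SD, n = 4 each), a log2 difference of 1.11 ± 0.20 (limma adjusted p = 9.11e-05). The copper importer SLC31A1 averaged 3.26 ± 0.618 FPKM in CONT_SOL and 1.31 ± 0.531 FPKM in CONT_PEM. Both were higher in SOL under all 3 diets, as was the zinc importer SLC39A3, and SLC31A2 was lower under all 3.

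Among the magnesium carriers, SLC41A1, which exports magnesium, was lower in SOL under each diet, with 13.5 ± 0.389 FPKM in CONT_SOL and 24.1 ± 2.41 FPKM in CONT_PEM (SD, n = 4 each). SLC41A2, at 0.671 ± 0.153 FPKM in CONT_SOL and 1.55 ± 0.234 FPKM in CONT_PEM, was lower too, and SLC41A3, placed in mitochondria, was called higher in LHFD hens with overlapping ranges. The heme carrier SLC48A1, the most abundant of the class, averaged 24.6 ± 2.02 FPKM in CONT_SOL and 27.7 ± 2.77 FPKM in CONT_PEM and was called lower in SHFD hens only. SLC30A5, which loads zinc into the secretory pathway, was lower in SOL in CONT and SHFD hens. Of the iron carriers, SLC11A2 (DMT1) was called higher in CONT hens with 4.58 ± 0.642 FPKM in CONT_SOL and 2.35 ± 0.918 FPKM in CONT_PEM (limma adjusted p = 0.027). That call was lost under quantile normalization (adjusted p = 0.116), without CONT_PEM 1 (0.112) and 3 (0.0509), and without CONT_SOL 3 (0.0696). SLC39A14, an importer of zinc and iron, was called higher in CONT hens (limma adjusted p = 0.014) with overlapping ranges, and lost the call under quantile normalization (0.21) and without CONT_PEM 4 (0.0507) or CONT_SOL 1 (0.0529).

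Both sodium-phosphate cotransporters of the set, SLC20A1 and SLC20A2, supply cells with phosphate. SLC20A2 was called in LHFD hens only. It had 31.1, 29.9, 28.2 and 52.9 FPKM in LHFD_SOL, against 24.7, 20.1, 13.9 and 11.9 FPKM in LHFD_PEM, a log2 difference of 0.98 ± 0.33 (limma adjusted p = 0.0218) without overlap. In CONT hens the difference was -0.51 and not called. SLC20A1 averaged 1.75 ± 0.338 FPKM in CONT_SOL and 1.60 ± 0.661 FPKM in CONT_PEM (SD, n = 4 each) and was not called under any diet.

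Of the 20 carriers of sodium, protons, bicarbonate, chloride and calcium, 7 were higher and 1 lower in SOL in CONT hens, 6 and 1 in SHFD, and 7 and 1 in LHFD hens. The share called was 40%, 35% and 40%, below the 50.7%, 51.6% and 43.8% of all genes. Of all genes tested, 30.7%, 26.5% and 28.9% were called higher. Under quantile normalization the counts were 6 and 3 in CONT, 5 and 3 in SHFD, and 2 and 3 in LHFD hens. SLC12A5, SLC24A3, SLC4A7 and SLC9A7 reached 1 FPKM only in SOL libraries, and without them 3 were higher and 1 lower in CONT, 2 and 1 in SHFD, and 3 and 1 in LHFD hens. SLC12A5 (KCC2), known for removing chloride from neurons, was the extreme case. It had 9.04, 8.06, 20.5 and 12.7 FPKM in CONT_SOL, against 0.0437, 0.106, 0 and 0 FPKM in CONT_PEM, where 0 means that the gene was listed at 0. It was listed at 0 in all 4 SHFD_PEM libraries and had 3.99, 6.52, 3.61 and 32.1 FPKM in SHFD_SOL. The log2 difference was 3.63 ± 0.46 in CONT hens (limma adjusted p = 1.54e-06), and in SHFD hens it was 3.12, or 2.48 without SHFD_SOL 4, still called. The high values of 32.1 FPKM in SHFD_SOL 4 and 28.7 FPKM in LHFD_SOL 4 came from the libraries with the highest slow-fibre sums of their groups.

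SLC26A5 (prestin), an anion transporter family member known as the motor protein of mammalian outer hair cells, was the only member of the class called lower in SOL before quantile normalization, and was so under every diet. It had 17.4, 14.1, 11.9 and 10.4 FPKM in CONT_SOL, against 47.8, 34.4, 52.5 and 34.1 FPKM in CONT_PEM, a log2 difference of -1.58 ± 0.24 (limma adjusted p = 1.48e-05). The bicarbonate importer SLC4A7 averaged 2.34 ± 0.704 FPKM in CONT_SOL and 0.427 ± 0.264 FPKM in CONT_PEM (SD, n = 4 each). The organelle exchanger SLC9A7 averaged 1.32 ± 0.435 FPKM in CONT_SOL and 0.355 ± 0.282 FPKM in CONT_PEM. Both were higher in SOL under every diet, as were SLC12A4 and SLC24A3.

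The sodium-potassium-chloride cotransporter SLC12A2 was not called, with 4.46 ± 0.981 FPKM in CONT_SOL and 5.38 ± 1.70 FPKM in CONT_PEM (SD, n = 4 each). SLC4A4, a sodium-bicarbonate cotransporter, was called higher in SOL in SHFD hens only (0.81, limma adjusted p = 0.0423).

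The 16 SLC35 members belong to a family best known for carrying nucleotide sugars into the Golgi or endoplasmic reticulum, and its E, F and G members are placed here by name alone. They gave more calls lower than higher in SOL. In CONT hens 3 were higher and 8 lower, in SHFD hens 2 and 8, and in LHFD hens 1 and 5. The share called was 68.8%, 62.5% and 37.5%, beside 50.7%, 51.6% and 43.8% of all genes. Of all genes tested, 20%, 25.1% and 14.9% were called lower. In CONT hens the counts were 2 and 8 under quantile normalization and 3 and 5 under equal nuclear sums, which gave 3 and 3 in LHFD hens. SLC35G1 had the largest difference among those named, with 0.922, 1.08, 0.793 and 1.31 FPKM in CONT_SOL, against 4.92, 3.68, 7.04 and 7.48 FPKM in CONT_PEM (-1.71 ± 0.25, limma adjusted p = 8.32e-06). SLC35B4, which carries UDP-sugars, averaged 2.26 ± 0.208 FPKM in CONT_SOL and 4.31 ± 0.296 FPKM in CONT_PEM (SD, n = 4 each). SLC35A3, a UDP-N-acetylglucosamine carrier, was also lower under every diet, at 0.901 FPKM in CONT_SOL and 1.83 FPKM in CONT_PEM on average. SLC35C2 was higher in CONT and SHFD hens by 0.64 and 0.44, and the most abundant member, SLC35B1, was not called under any diet, with means of 18.2 FPKM in CONT_SOL and 18.8 FPKM in CONT_PEM.

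Of the 8 carriers of organic ions and drugs, 3 were higher and 1 lower in SOL in CONT hens, 4 and 2 in SHFD, and 3 and 2 in LHFD hens, and quantile normalization gave 2 and 3 in CONT hens. The share called in the main fit was 50%, 75% and 62.5%, beside 50.7%, 51.6% and 43.8% of all genes. Without SLC22A3 and SLC6A4, which reached 1 FPKM only in SOL libraries, the counts were 2 and 1, 2 and 2, and 2 and 2. SLC47A2, which extrudes organic cations, averaged 2.74 ± 0.589 FPKM in CONT_SOL and 0.765 ± 0.813 FPKM in CONT_PEM (SD, n = 4 each), and was higher under every diet. It met the minimum of 4 libraries through SOL alone, so that difference is partly built into its selection. SLC22A23, whose substrate is unknown, was lower under every diet. It had 5.04, 7.08, 4.79 and 4.55 FPKM in CONT_SOL, against 12.0, 11.6, 34.0 and 10.8 FPKM in CONT_PEM. The serotonin transporter SLC6A4 was called higher in CONT hens at low levels, 0.797 FPKM in CONT_SOL and 0.314 FPKM in CONT_PEM on average (limma adjusted p = 0.0361), and lost that call under quantile normalization (0.792) and without CONT_PEM 2 (0.0664) or 4 (0.104), or CONT_SOL 1 (0.0795), 3 (0.0695) or 4 (0.0619).

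The 3 genes classed with lipids and bile acids, SLC27A4, SLC27A3 and SLC10A7, the last by its family name alone, were not called under any diet. SLC27A4, a fatty acid transport protein with acyl-CoA synthetase activity, averaged 4.13 ± 0.441 FPKM in CONT_SOL and 3.42 ± 0.555 FPKM in CONT_PEM (SD, n = 4 each). SLC66A3 was higher in SHFD hens, and SLC66A2 was not called, with means of 4.12 FPKM in CONT_SOL and 4.08 FPKM in CONT_PEM. Another 4 genes carry an SLC symbol but encode proteins that bind or neighbour a carrier. Of these, SLC9A3R2, a PDZ scaffold for a sodium-proton exchanger, averaged 24.1 ± 3.33 FPKM in CONT_SOL and 8.48 ± 1.19 FPKM in CONT_PEM (1.40, limma adjusted p = 5.24e-05). SLC4A1AP was lower in SOL in every diet (-0.56 in CONT hens).

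Genes that work with these carriers were read from a list of 51 tested partners: chaperones, ion pumps, and enzymes of the same substrates. In CONT hens 17 were higher and 14 lower in SOL, in SHFD hens 14 and 13, and in LHFD hens 16 and 8, beside the 50.7%, 51.6% and 43.8% of all genes called. Quantile normalization gave 13 and 16 in CONT, 11 and 16 in SHFD, and 13 and 12 in LHFD hens, and equal nuclear sums gave 20 and 11 in CONT, 15 and 13 in SHFD, and 19 and 8 in LHFD hens. BSG (basigin), which brings SLC16A1 and SLC16A3 to the cell surface, averaged 162 ± 6.05 FPKM in CONT_SOL and 84.8 ± 14.6 FPKM in CONT_PEM (SD, n = 4 each; log2 difference 0.94, limma adjusted p = 1.45e-05). LDHB, the lactate dehydrogenase subunit of oxidative tissue, averaged 549.8 ± 129 FPKM in CONT_SOL and 11.9 ± 9.58 FPKM in CONT_PEM and was higher, and LDHA was lower (-3.18). G6PC3, a glucose-6-phosphatase that uses the substrate delivered by SLC37A4, was lower, with 8.28 ± 1.48 FPKM in CONT_SOL and 17.4 ± 3.67 FPKM in CONT_PEM.

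For amino acids, the glutaminase GLS2 averaged 7.00 ± 1.59 FPKM in CONT_SOL and 125 ± 24.7 FPKM in CONT_PEM (SD, n = 4 each), and glutamine synthetase, GLUL, 28.1 ± 3.20 FPKM in CONT_SOL and 169 ± 112 FPKM in CONT_PEM. Both were lower, as was the branched-chain aminotransferase BCAT1 (-2.57). For taurine, the synthesis enzymes CDO1 and CSAD were higher in SOL by 2.28 and 0.87 on the log2 scale, and CARNS1, which makes carnosine, was lower (-2.48). For metals, the transferrin receptor TFRC was higher (1.66) and the copper pump ATP7A lower (-1.40). Of the pump genes, ATP1B1 and FXYD6 were higher (1.45 and 1.74). The other partners called higher in CONT hens were EMB, CA4, CASTOR1, ACO1, MT3, HMOX1, CNNM2, HK2, MPC2 and ANKH, between 0.52 (EMB) and 1.37 (MPC2). Those called lower were TMLHE, SESN2, IREB2, MTF1, GYS1, TXNIP and XPR1, between -1.35 (XPR1) and -0.38 (TMLHE).

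The next question was whether high-fat feeding changed solute carriers within the pectoralis. After 15 days, 2 of 128 were called against CONT, both lower, which is 1.56% beside 1.07% of all genes tested (0.539% higher and 0.53% lower). Summed slow-fibre markers were 92.3 to 223 FPKM in SHFD_PEM and 29.6 to 65.8 FPKM in CONT_PEM, without overlap, and their part in the results was not tested. Most of that sum was MB (myoglobin), with 83.4 to 217 FPKM in SHFD_PEM and 22.8 to 55.6 FPKM in CONT_PEM. MYH7B overlapped, with 0.0637 to 0.789 FPKM in SHFD_PEM and 0.125 to 2.70 FPKM in CONT_PEM. TNNI1 did too, with 0.623 to 1.84 and 0.0715 to 6.11 FPKM. Of the 7 slow-fibre genes tested, 1 was called, higher in SHFD_PEM. No other cell marker list differed without overlap between diets within PEM. SLC41A3, a magnesium carrier, had 2.30, 2.31, 1.46 and 1.39 FPKM in SHFD_PEM, against 4.44, 3.65, 9.74 and 10.7 FPKM in CONT_PEM. No SHFD library reached the lowest CONT library, and the log2 difference was -1.41 ± 0.32 (SE, n = 4 each; limma adjusted p = 0.0319). SLC46A1, a proton-coupled folate carrier, had 0.935, 1.02, 0.758 and 0.799 FPKM in SHFD_PEM, against 2.04, 1.69, 2.96 and 1.58 FPKM in CONT_PEM (-0.69 ± 0.17, limma adjusted p = 0.0438), also without overlap. Both calls were lost under quantile normalization. SLC41A3 also lost its call without CONT_PEM 3 or 4 or SHFD_PEM 1, 3 or 4 (adjusted p = 0.061 to 0.111), and SLC46A1 without CONT_PEM 1 or 3 or any SHFD_PEM library (0.0575 to 0.15). The count was 0 without CONT_PEM 3, SHFD_PEM 3 or SHFD_PEM 4, 1 without CONT_PEM 1 or 4 or SHFD_PEM 1 or 2, and 4 without CONT_PEM 2.

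After 60 days, 10 of 128 were called against CONT in PEM, 1 higher and 9 lower. That is 7.81% beside 6.94% of all genes (2.05% higher and 4.9% lower). The count was 6 under quantile normalization (3 higher and 3 lower) and under equal nuclear sums (1 and 5), and 0 when the fit held only these 2 groups. Those settings called 661, 598 and 69 of all genes, beside 760 in the main fit. Leaving out 1 library gave 5 without CONT_PEM 3 or LHFD_PEM 2, 6 without CONT_PEM 1 or LHFD_PEM 3, and 17 without CONT_PEM 2. The single rise was that of SLC38A2. It had 28.0, 27.7, 25.2 and 15.1 FPKM in LHFD_PEM, against 4.53, 10.4, 9.68 and 12.3 FPKM in CONT_PEM. All LHFD libraries were above all CONT libraries, with a log2 difference of 1.33 ± 0.25 (limma adjusted p = 0.00376). SHFD_PEM overlapped both, with 15.8, 11.7, 10.9 and 9.56 FPKM.

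SLC20A2, the phosphate transporter, fell. It had 24.7, 20.1, 13.9 and 11.9 FPKM in LHFD_PEM, against 63.5, 32.1, 99.3 and 41.6 FPKM in CONT_PEM, a log2 difference of -1.62 ± 0.33 (limma adjusted p = 0.00592) without overlap. The CONT libraries varied widely among themselves. SLC22A23 had 4.40, 5.53, 4.70 and 7.58 FPKM in LHFD_PEM, against 12.0, 11.6, 34.0 and 10.8 FPKM in CONT_PEM, a log2 difference of -1.32 ± 0.27 (limma adjusted p = 0.00519). Its highest CONT value came from CONT_PEM 3. Of the 10 calls, those of SLC38A2, SLC20A2 and SLC22A23 were lost only in the fit of these 2 groups alone, at adjusted p of 0.0842, 0.0842 and 0.108.

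SLC30A5, the zinc carrier of the secretory pathway, had 5.68, 4.80, 6.26 and 4.99 FPKM in LHFD_PEM, against 8.46, 8.16, 8.24 and 6.57 FPKM in CONT_PEM (-0.46 ± 0.11, limma adjusted p = 0.0151), and lost its call without CONT_PEM 1 (0.0507) or LHFD_PEM 2 (0.0588). The lysosomal SLC36A1 had 1.19, 1.58, 1.52 and 1.94 FPKM in LHFD_PEM, against 2.87, 2.20, 2.68 and 2.19 FPKM in CONT_PEM (-0.45 ± 0.11, limma adjusted p = 0.0203). Neither gene overlapped between the groups. The magnesium carrier SLC41A3 was lower after 60 days too, with 2.65, 2.24, 3.65 and 1.22 FPKM in LHFD_PEM against the CONT_PEM values given above (-1.18 ± 0.32, limma adjusted p = 0.0294); the SHFD and LHFD comparisons share the CONT libraries.

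The remaining calls were close to the threshold. SLC35B4 averaged 3.08 ± 0.224 FPKM in LHFD_PEM and 4.31 ± 0.296 FPKM in CONT_PEM (SD, n = 4 each; limma adjusted p = 0.0297). SLC46A1 averaged 1.07 ± 0.403 FPKM in LHFD_PEM and 2.07 ± 0.623 FPKM in CONT_PEM, with overlap (limma adjusted p = 0.0399). SLC26A5 averaged 23.7 ± 3.07 FPKM in LHFD_PEM and 42.2 ± 9.36 FPKM in CONT_PEM (limma adjusted p = 0.0488). SLC43A2, the efflux carrier of large neutral amino acids, had 52.3, 56.3, 55.1 and 15.6 FPKM in LHFD_PEM, against 125, 57.7, 229 and 144 FPKM in CONT_PEM (-1.61 ± 0.49, limma adjusted p = 0.0492). The lowest LHFD value came from LHFD_PEM 4 and the highest CONT value from CONT_PEM 3, and the difference was -1.17 without LHFD_PEM 4 and -1.32 without CONT_PEM 3, uncalled in both cases (adjusted p = 0.156 and 0.168). Leaving out 1 library ended the call of SLC36A1 for CONT_PEM 1 or 3 or LHFD_PEM 1, with adjusted p of 0.0662 to 0.0711, that of SLC41A3 for CONT_PEM 3 or 4 or LHFD_PEM 2 or 4 (0.073 to 0.108), and that of SLC35B4 for CONT_PEM 1 or 4 or LHFD_PEM 1, 2 or 3 (0.0525 to 0.0835). The call of SLC46A1 was lost without CONT_PEM 1 or 3 or LHFD_PEM 1, 2 or 3 (0.0728 to 0.154), that of SLC26A5 without CONT_PEM 1 or 3 or any LHFD_PEM library (0.0743 to 0.153), and that of SLC43A2 without CONT_PEM 1, 3 or 4 or any LHFD_PEM library (0.0585 to 0.168).

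**Figure D4:**
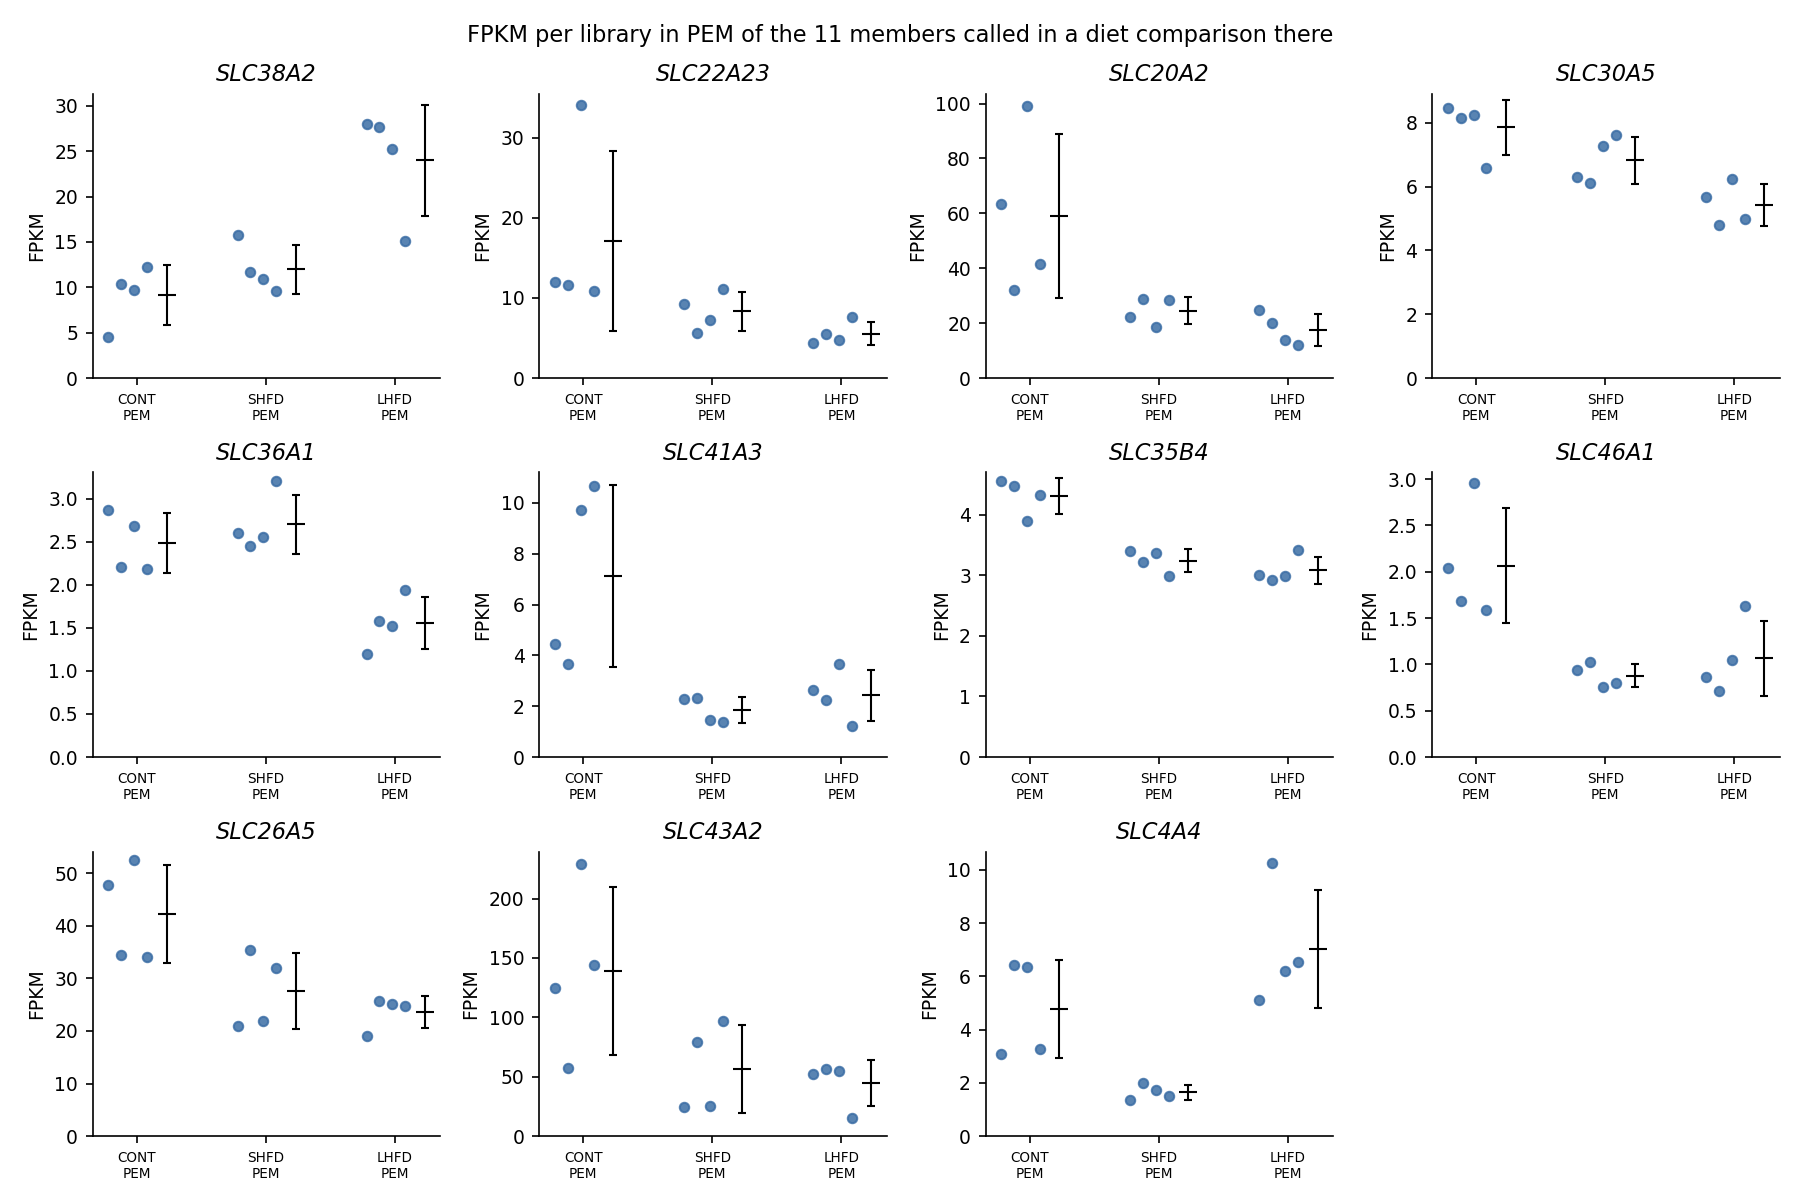
FPKM in every PEM library for the 11 solute carriers called in a diet comparison within PEM, in the order CONT, SHFD and LHFD; dashes and bars are the mean ± SD of 4 libraries. SLC38A2 is above all CONT libraries in the 4 LHFD libraries, SLC20A2 and SLC22A23 are below them, and SLC4A4 is lowest in SHFD.

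Between the high-fat diets, 1 of 128 was called in PEM, which is 0.781% beside 0.201% of all genes (0.119% higher and 0.0822% lower). SLC4A4, the sodium-bicarbonate cotransporter, had 5.13, 10.2, 6.22 and 6.53 FPKM in LHFD_PEM, against 1.36, 2.0, 1.73 and 1.51 FPKM in SHFD_PEM, with no overlap (1.57 ± 0.33, limma adjusted p = 0.0474). CONT_PEM had 3.09, 6.41, 6.36 and 3.27 FPKM, above every SHFD_PEM library and overlapping LHFD_PEM. The call was lost under quantile normalization (0.0937), under equal nuclear sums (0.0623) and without any 1 of the 8 libraries compared (0.052 to 0.183). SLC36A1, with a difference of -0.54, was not called (limma adjusted p = 0.0553). Of the 51 partners, 2 were called in PEM after 15 days, GLUL (-1.87) and FXYD6 (-1.09), both lower, beside 1.07% of all genes. The count was 1 under equal nuclear sums (GLUL), 0 in a fit of these groups alone, which called 0 of all genes, and 0 without CONT_PEM 1 or 3 or SHFD_PEM 1. After 60 days 2 were higher, the pump subunit ATP1B1 (1.10) and hexokinase HK2 (1.3), and 4 lower, GLUL (-1.80), the leucine sensor SESN2 (-0.72), TMLHE (-0.51), an enzyme of carnitine synthesis, and CNNM4 (-0.46), a magnesium transporter, beside 6.94% of all genes. That count was 4 under quantile normalization and under equal nuclear sums, 1 (HK2) in a fit of these groups alone, which called 69 of all genes, and 3 without CONT_PEM 1, CONT_PEM 3 or LHFD_PEM 2.

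The same question was asked of the soleus. After 15 days 2 of 128 were called against CONT, 1 higher and 1 lower, which is 1.56% beside 0.557% of all genes (0.164% higher and 0.393% lower). SLC39A10, a zinc importer of the cell surface, had 3.77, 3.02, 3.45 and 1.77 FPKM in SHFD_SOL, against 1.06, 0.847, 0.943 and 0.781 FPKM in CONT_SOL. Every SHFD library was above every CONT library, and the log2 difference was 1.04 ± 0.17 (SE, n = 4 each; limma adjusted p = 0.0102). The call was lost without SHFD_SOL 3 (adjusted p = 0.0636) and in a fit of only these 2 groups (0.108). SLC37A1, a sugar phosphate exchanger, had 1.35, 2.91, 1.79 and 2.97 FPKM in SHFD_SOL, against 3.62, 4.82, 8.25 and 3.75 FPKM in CONT_SOL (-0.88 ± 0.20, limma adjusted p = 0.0484). It lost its call without any 1 of the CONT_SOL libraries or SHFD_SOL 1 or 3 (0.0593 to 0.186), under quantile normalization (0.0574), with a pseudocount of 0.1 (0.0661), without the filter on low values (0.0759), with the replicate block (0.0669) and in a fit of only these groups (0.171). The total was 0 without SHFD_SOL 3, 5 without SHFD_SOL 2 and 4 without SHFD_SOL 4.

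After 60 days 1 of 128 was called in SOL, which is 0.781% beside 0.521% of all genes (0.228% higher and 0.292% lower). SLC5A6, the biotin and pantothenate carrier, had 6.28, 6.91, 9.44 and 6.78 FPKM in LHFD_SOL, against 13.8, 8.23, 19.7 and 19.6 FPKM in CONT_SOL. It was lower (-0.91 ± 0.19, limma adjusted p = 0.0342), with CONT_SOL 2 below the highest LHFD_SOL library, and the call was lost without CONT_SOL 1, 3 or 4 or LHFD_SOL 1, 2 or 4 (0.0811 to 0.115), with a pseudocount of 0.1 (0.0621) and in a fit of only these groups (0.119). In that fit the single call was a rise, that of SLC6A6. The taurine transporter SLC6A6 had 30.4, 23.5, 43.0 and 27.0 FPKM in LHFD_SOL, against 13.2, 8.47, 12.4 and 15.4 FPKM in CONT_SOL. The groups did not overlap, but the log2 difference of 1.25 ± 0.30 was not called (limma adjusted p = 0.0643). It was called under quantile normalization (0.0245), in the fit of only these groups (0.0462) and without CONT_PEM 2 and LHFD_PEM 1 (0.000783).

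Between the high-fat diets 1 of 128 was called in SOL, 0.781% beside 0.886% of all genes (0.621% higher and 0.265% lower). Summed FPKM of the smooth muscle and pericyte list were 3076 to 3788 in LHFD_SOL and 4008 to 5643 in SHFD_SOL, without overlap. Their part in the results was not tested. That list includes DES (desmin), which skeletal muscle fibres also make, and none of its 7 genes was called between these groups. No other cell marker list differed without overlap between diets within SOL. The member called was SLC39A10 again, with 1.16, 0.806, 0.766 and 0.966 FPKM in LHFD_SOL, against the SHFD_SOL values given above (-1.03 ± 0.17, limma adjusted p = 0.00527). The SHFD libraries are those of the comparison with CONT. This call held in all alternatives tried, and the count was 2 without LHFD_SOL 4 and 3 without SHFD_SOL 2 or 4. A related zinc importer, SLC39A6, which was chosen here after its values were seen, had 9.61, 4.05, 5.68 and 3.25 FPKM in SHFD_SOL, against 2.27, 1.81, 1.88 and 2.40 FPKM in CONT_SOL. Its difference of 1.02 was not called (limma adjusted p = 0.0758). None of the 51 partners was called by limma in a diet comparison within SOL, where 8 had an unadjusted p under 0.05 for SHFD against CONT, 6 for LHFD against CONT and 8 for LHFD against SHFD. Of all genes, 16%, 12% and 11.2% had such a p in these comparisons. ATP7A was called for LHFD against CONT under quantile normalization, and GLUL for LHFD against SHFD without CONT_PEM 2 and LHFD_PEM 1.

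**Figure D5:**
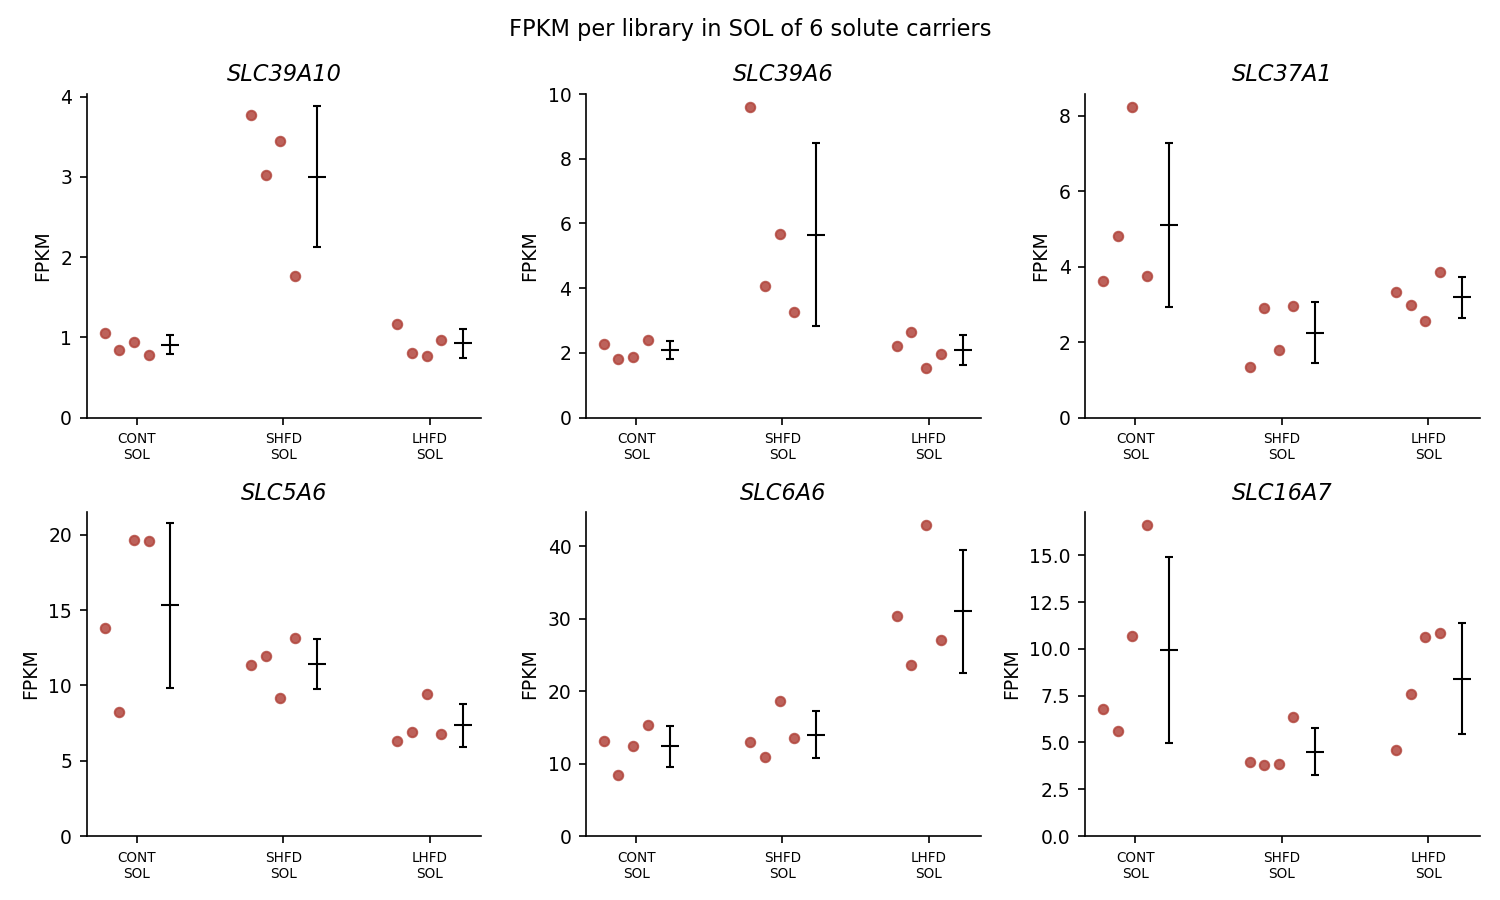
FPKM in every SOL library for 6 solute carriers, in the order CONT, SHFD and LHFD; dashes and bars are the mean ± SD of 4 libraries. SLC39A10 and SLC39A6 are highest in SHFD, SLC6A6 is highest in LHFD, and SLC5A6 is lower in LHFD than in 3 of the 4 CONT libraries.

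The last comparison asked whether a diet effect differed between the muscles, as the change in SOL minus the change in PEM. No solute carrier was called for either diet by limma (background 0.00914% for SHFD and 0% for LHFD), and 10 and 9 had an unadjusted p under 0.05. That is 7.81% and 7.03%, beside 6.41% and 5.67% of all genes. For SHFD the smallest p was that of SLC39A10, with a difference of 0.74 ± 0.24 (limma adjusted p = 0.536), followed by SLC4A4 with 1.34. For LHFD it was that of SLC6A6, with 1.35 ± 0.43 (limma adjusted p = 0.534), followed by SLC20A2 with 1.49. Calls made in a single muscle are therefore not shown to differ between the muscles.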

How the data were processed

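Per the labels' protocols, the authors trimmed reads with fastp, aligned them with HISAT2 to GRCg6a and estimated FPKM with StringTie v1.3.3b. Cufflinks and DESeq2 are named in the submitters' processing notes without a role. The deposited FPKM values are shares of a library, so a change in abundant genes moves all others. Each of the 24 value columns was matched to a sample by name.

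From the deposited FPKM, log2(FPKM + 1) was fitted with limma 3.58.1 (R 4.3.3, trend) with 1 mean per group (6 groups, 18 residual degrees of freedom), over genes that reached 1 FPKM in 4 libraries or more. There were 11 comparisons, each with two-sided tests and Benjamini-Hochberg adjustment over the 10944 genes. Fold changes on this scale understate changes of low genes. The labels call the 4 libraries of a group biological replicates. The script was tested on simulated data. Genes were sorted into 13 substrate classes by symbol, and 4 symbols were moved to a class of accessory proteins after the table was seen. The members, classes, partner and marker lists were chosen with earlier results of these data known. Values are given for 55 members: per class the 4 smallest p in CONT muscles and the most abundant, those called by diet (at most 10), the 3 largest rises and falls under each high-fat diet, and 22 fixed muscle transporters, of which 16 were members. SLC39A6 was added after its values were seen. Alternatives were the pseudocount, no filter, quantile normalization, equal nuclear sums, a fit of only the groups compared, a replicate block, a block by diet and number, and leaving out libraries. Counting without members that reach 1 FPKM in a single muscle was added after the data were seen. Results for 2 other members that this rule names are not reported here. Sequences and coordinates are not used here.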

Additional observations from a re-analysis of the deposited data

Results flagged for a closer look

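In 15 of 143 sets of 4 libraries examined, 1 library lay far from the other 3 by Dixon's criterion. Chance flags about 1 in 20 groups. Of the 15, 5 came from CONT_PEM 2, the highest library of its group on several lists of cell markers. There SLC12A2 had 7.90 FPKM (4.22 to 4.73 in the other 3), SLC20A1 2.58 (1.20 to 1.31), SLC2A8 2.77 (1.41 to 1.63), SLC6A6 4.80 (0.644 to 0.689) and SLC9A7 0.774 (0.161 to 0.243).

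SLC12A5 stood high in SHFD_SOL 4, at 32.1 FPKM (3.61 to 6.52 in the other 3), and in LHFD_SOL 4, at 28.7 FPKM (5.74 to 8.50). In LHFD_PEM 1, SLC26A5 was low at 19.1 FPKM (24.7 to 25.8) and SLC6A6 high at 1.94 FPKM (0.802 to 0.984). In LHFD_PEM 4, SLC43A2 was low at 15.6 FPKM (52.3 to 56.3) and SLC35B4 high at 3.42 FPKM (2.92 to 3.0). SLC22A23 reached 34.0 FPKM in CONT_PEM 3 (10.8 to 12.0), and SLC30A5 was 6.57 FPKM in CONT_PEM 4 (8.16 to 8.46).

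In SOL of CONT hens, SLC37A4 had 10.5 FPKM in CONT_SOL 3 (15.2 to 15.6) and SLC20A1 2.25 FPKM in the same library (1.55 to 1.62).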

How the results depend on the processing

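The counts of solute carriers called in SOL against PEM stayed within 1.5 times their main value under every alternative; leaving out 1 library gave 61 to 72 in CONT, 64 to 71 in SHFD and 50 to 59 in LHFD hens. Diet counts were small and moved more, and the causes were not tested. In PEM, LHFD against CONT (10) gave 6 without the filter on low values, 6 under quantile normalization, 6 under equal nuclear sums, 0 with only the groups compared in the fit, and 5 to 17 with 1 library left out. SHFD against CONT (2) gave 0 without the filter, 0 under quantile normalization, 0 with only the groups compared, 1 under equal nuclear sums, 4 without CONT_PEM 2 and LHFD_PEM 1, and 0 to 4 with 1 library left out. LHFD against SHFD (1) gave 0 in the first 2 of these settings, under equal nuclear sums and without those libraries, and 0 to 1 with 1 left out. In SOL, SHFD against CONT (2) gave 1 without the filter, 1 with a pseudocount of 0.1, 0 with only the groups compared and 0 to 5 with 1 library left out. LHFD against CONT (1, a fall) gave 0 with a pseudocount of 0.1, 1 that was a rise with only the groups compared, 2 under quantile normalization, 3 without CONT_PEM 2 and LHFD_PEM 1, and 0 to 1 with 1 left out. LHFD against SHFD (1) gave 2 under equal nuclear sums, 2 without those libraries, and 1 to 3 with 1 left out. Both differences of diet effect stayed at 0. For LHFD and SHFD against CONT in PEM, the fit of only the groups compared called 69 and 0 of all genes. The main fit called 760 and 117 there. In SOL these were 68 and 3, beside 57 and 61 in the main fit.

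The labels do not pair the libraries by bird, so the replicate numbers were not taken as pairing. Of 12 SOL and PEM pairs of the same diet and number, 7 correlated above 0.1 (range -0.12 to 0.36). The highest LHFD pair was at 0.094. Of 24 libraries, 17 correlated best with their own number among the 4 of the other muscle under the same diet. The numbers may therefore mark birds in part, and the main SOL against PEM tests took the libraries as unpaired. A fit that took diet and number as the bird called 5460, 5575 and 4672 of all genes in CONT, SHFD and LHFD hens. The main fit called 5554, 5646 and 4795. With the replicate block, which shares a number across diets and is not the bird, the counts of solute carriers were 67, 70 and 54 in CONT, SHFD and LHFD hens. For the diets that block gave 0 for LHFD against SHFD in PEM, 1 for SHFD against CONT in PEM and 1 for SHFD against CONT in SOL. Among the members named by rule, direction reversed only for uncalled SOL against PEM values in CONT hens near 0: SLC20A1 (-0.22) and SLC66A2 (-0.18) under quantile normalization, SLC35B1 (0.088) under equal nuclear sums, and with 1 library left out SLC35B1 (-0.17 to 0.065) and SLC66A2 (-0.023 to 0.073). With 4 libraries a group and an unknown depth, small diet differences may not be detectable here.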
